A study of Mus musculus with 2 samples.

Results

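Natural killer (NK) cells sorted from MC38 tumours of fasted mice were set against NK cells sorted from the spleens of fasted mice. MC38 is a mouse colon carcinoma line that was injected under the skin. Both populations came from C57BL/6 mice aged 12 weeks that carried MC38 and were kept on a diet with repeated fasting, and the tag list names both as fasted. The sort took cells without lineage markers that were positive for both NK1.1 and CD49b. The series holds 10 NK cell populations. They are named as fasted, refed and ad libitum populations of tumour, bone marrow and spleen, and a spleen population named naive. Each was marked with its own hashtag antibody. All were run together on 1 lane for droplet-based RNA sequencing with unique molecular identifiers (UMIs). The members were the cells given to a single hashtag by the deposited classification, with a population name that starts with Tumor_Fast or Spleen_Fast. That rule gave 801 tumour cells and 1391 spleen cells of 7479 single-population cells in the series. A cluster of T cell-like cells and a cluster of myeloid-like cells were left out, which left 768 tumour cells and 1363 spleen cells.

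Each population is 1 sample, and the number of mice behind it is not known here. There was therefore no replicate check of any difference and no p-value. The 95% intervals of ratios, from the exact binomial distribution of UMIs, cover counting error only. Those of shares of cells are exact binomial intervals over numbers of cells. Cells of 1 population are not replicates, so these intervals do not cover the spread between mice either. The tumours were digested with DNase I and collagenase 4 at body temperature, whereas the spleens were pressed through a strainer, so tissue and dissociation cannot be told apart. The tumour cells held 5835739 UMIs in sum with a median of 5302 per cell, and the spleen cells held 5212065 UMIs with a median of 3448. Ribosomal protein genes took 32.0% of UMIs in tumour cells and 23.9% in spleen cells. The labelled cell type stood in both populations, with 10 of 10 NK markers at 20 CPM or more in each, where CPM are UMIs of a gene scaled to 1000000 UMIs of the population. The NK markers summed to 15400 CPM in tumour cells and 29590 CPM in spleen cells.

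NK cells are innate lymphocytes that kill stressed or transformed cells. They release granules in which perforin opens the target membrane and granzymes, a family of serine proteases, start cell death. In the spleen most NK cells belong to the circulating pool. Circulating NK cells mature through steps that are driven by T-bet and Zeb2 and leave tissues along gradients of sphingosine-1-phosphate. Inside tumours, NK cells meet transforming growth factor beta (TGF-β), low oxygen and interferons. TGF-β is known to move NK cells towards a tissue-resident programme.

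Differences are given as the log2 ratio of tumour over spleen, computed from CPM + 5. A difference of at least 2-fold, which is a log2 ratio of 1 or more in size, counted as a difference here. Of 5604 genes with at least 20 CPM in either population, 296 (5.28%) were at least 2-fold higher in tumour cells and 403 (7.19%) were at least 2-fold lower. The median of all 5604 genes was -0.22. Scaling with TMM factors, which moved that median by 0.308, gave 516 higher and 182 lower genes. Totals without ribosomal protein and mitochondrial genes moved it by 0.142 and gave 481 higher and 343 lower genes.

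A cluster of cells rich in RNA has to be described before the genes. It held 63 of 768 tumour cells (8.20%) and 0 of 1363 spleen cells, and a count of 0 allows a spleen share of up to 0.22%. Its median was 26900 UMIs per cell, against 5065 in the other tumour cells, and it carried 28.8% of all tumour UMIs. Genes of dividing cells summed to 1323 CPM in it, 244 CPM in the other tumour cells and 371 CPM in spleen cells, while NK markers summed to 8865 CPM in it, 18040 CPM in the other tumour cells and 29590 CPM in spleen cells. B cell markers summed to 230 CPM in it, 98.0 CPM in the other tumour cells and 111 CPM in spleen cells, and dendritic cell markers to 138 CPM, 56.3 CPM and 97.3 CPM in the same order. Macrophage markers were at 233 CPM in the cluster, 191 CPM in the other tumour cells and 685 CPM in spleen cells, and T cell markers at 216, 421 and 355 CPM. Pairs of cells from the same population carry the same hashtag, and their part in this cluster was not tested. The cluster is led by granzyme genes, so leaving it out removes cells that were grouped partly on those genes. Values without it are given beside a named gene where it ended a 2-fold difference or moved the ratio by more than 1.5 times.

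The highest ratio was that of Gzmc, one of the granzyme genes that lie side by side on chromosome 14. Gzmc, at chr14:56231441-56234656 on the minus strand of mm10, had 7952 CPM in tumour cells and 111 CPM in spleen cells, a log2 ratio of 6.10 (5.99 to 6.22). Gzmd had 548 CPM in tumour cells and 13.8 CPM in spleen cells, with a ratio of 4.88 (4.62 to 5.13). Gzmf had 345 CPM in tumour cells and 10.2 CPM in spleen cells (4.53, 4.25 to 4.80), and Gzme had 225 CPM in tumour cells and 7.29 CPM in spleen cells (4.23, 3.93 to 4.51). Gzmg, at 65.5 CPM in tumour cells and 2.30 CPM in spleen cells, drew 68.1% of its tumour UMIs from 1 cell, and its ratio was 3.27 (2.94 to 3.53), or 1.87 without the highest cell of either population. These genes have near copies of each other in the genome, so their promoters and reads were compared before the values were read further.

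The promoters of Gzmc, Gzmd and Gzme are printed because these 3 genes were high in the same few cells and are close copies. The sequences are RefSeq promoters on GRCm38.p6, from 250 bases before to 50 bases after the start of the gene, on the minus strand of chromosome 14. They lie at chr14:56234608-56234907 for Gzmc, chr14:56132544-56132843 for Gzmd and chr14:56120576-56120875 for Gzme. Capitals mark aligned bases that differ from Gzmd, and in Gzmd those that differ from Gzme.
Gzmc: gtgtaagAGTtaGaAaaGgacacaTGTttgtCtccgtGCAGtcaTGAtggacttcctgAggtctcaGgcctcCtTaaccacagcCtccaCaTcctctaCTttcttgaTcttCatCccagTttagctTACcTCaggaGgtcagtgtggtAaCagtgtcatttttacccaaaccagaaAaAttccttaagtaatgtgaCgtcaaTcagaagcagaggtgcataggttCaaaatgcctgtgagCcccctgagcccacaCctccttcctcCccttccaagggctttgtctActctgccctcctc
Gzmd: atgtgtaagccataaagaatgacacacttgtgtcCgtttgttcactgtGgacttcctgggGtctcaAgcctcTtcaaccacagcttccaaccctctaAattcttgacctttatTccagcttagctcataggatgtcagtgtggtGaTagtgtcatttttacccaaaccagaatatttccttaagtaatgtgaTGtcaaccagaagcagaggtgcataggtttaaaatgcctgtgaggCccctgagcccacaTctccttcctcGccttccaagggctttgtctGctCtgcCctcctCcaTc
Gzme: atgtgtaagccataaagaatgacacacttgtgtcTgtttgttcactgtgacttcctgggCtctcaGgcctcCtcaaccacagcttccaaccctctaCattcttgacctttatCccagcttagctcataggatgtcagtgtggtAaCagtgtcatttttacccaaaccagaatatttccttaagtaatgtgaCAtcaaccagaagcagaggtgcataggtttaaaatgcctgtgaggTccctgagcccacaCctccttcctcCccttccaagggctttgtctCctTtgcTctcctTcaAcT
The Gzmd and Gzme promoters were 93.4% identical, those of Gzmc and Gzmd 82.7%, and those of Gzmf and Gzmg 84.5%. The promoter of Gzmb, the best known granzyme of this cluster, was 42.8% to 47.7% identical to the other 5. In the last 500 bases of the transcripts, 1.70% of windows of 90 bases in Gzmd or Gzme were shared with another gene, and none in the other granzymes, so most reads could tell the family members apart.

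Most of this granzyme RNA came from the RNA-rich cells. They held 86.5% of the tumour UMIs of Gzmc, 87.8% of those of Gzmf and at least 98.4% of those of Gzmd, Gzme and Gzmg. In the remaining tumour cells Gzmc was at 1512 CPM and still 3.71 above spleen cells on the log2 scale, and Gzmf was at 59.2 CPM with a ratio of 2.08. Gzmd, Gzme and Gzmg turned, with ratios of -0.90, -0.88 and -0.18 in the remaining cells. After each cell was thinned to 1500 UMIs, which 714 tumour cells and 1264 spleen cells reached, Gzmc was seen in 29.0% of tumour cells and 15.4% of spleen cells. Among cells that should lack the gene, the share was 12.3% (6.88% to 19.8%) of 114 myeloid-like cells and 7.27% (3.81% to 12.4%) of 165 T cell-like cells, and that of spleen cells had an interval of 13.5% to 17.5%. Of the 5 genes Gzmc to Gzmg, 2 were seen together in 17 thinned tumour cells, 3 in 13 and 4 in 7, whereas 11 spleen cells held 2 and none held more.

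**Figure D1:**
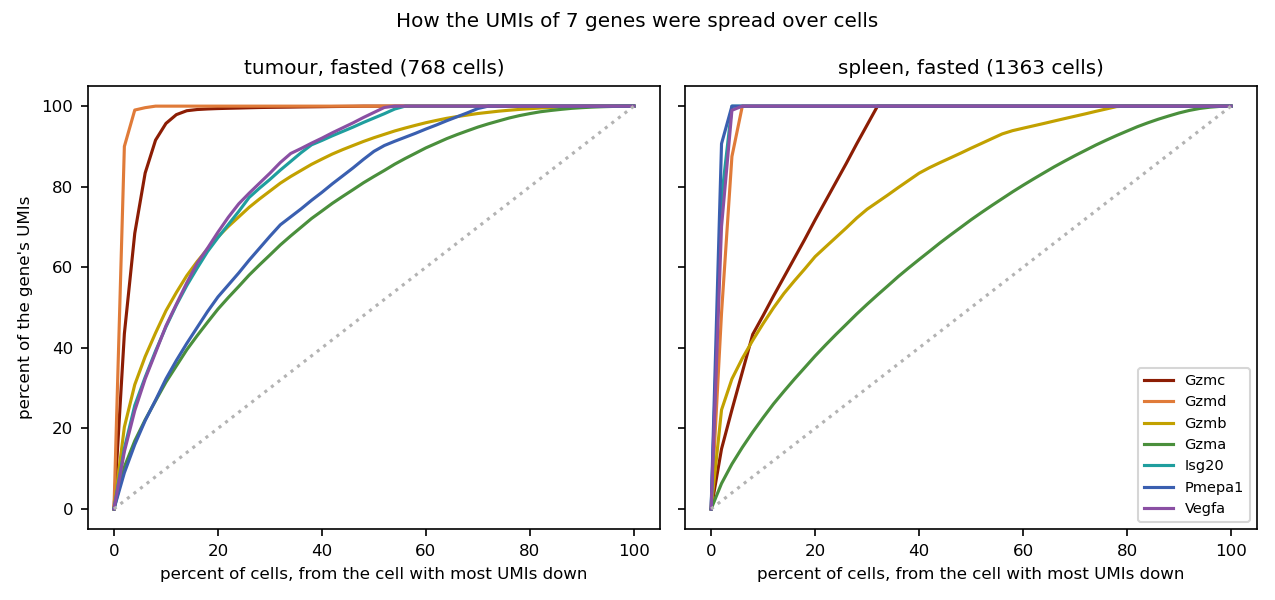
Percent of a gene's UMIs (vertical axis) held by a given percent of cells (horizontal axis), counted from the cell with most UMIs down, in fasted tumour cells (left) and fasted spleen cells (right); the dotted line is an even spread. Gzmc and Gzmd rise steeply in tumour cells, where the top 10% of cells held 95.7% of the Gzmc UMIs, while Gzma and Pmepa1 were spread over many cells.

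The main granzymes behaved differently from one another. Gzmb had 3581 CPM in tumour cells and 875 CPM in spleen cells, a ratio of 2.03 (1.98 to 2.07), and the ratio was 1.98 without the RNA-rich cells. It was seen in 81.8% of thinned tumour cells, 58.1% of spleen cells and 33.3% of myeloid-like cells. Gzma, the most abundant granzyme of resting NK cells, had 8160 CPM in tumour cells and 15336 CPM in spleen cells, a ratio of -0.91 (-0.93 to -0.89) that did not reach 2-fold. Gzmk was at 13.2 CPM in tumour cells and 19.2 CPM in spleen cells, Gzmm was under 20 CPM in both, and Gzmn had 1 UMI in tumour cells and 0 in spleen cells.

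Of the list of 24 granule genes, 21 reached 20 CPM, 8 of them were at least 2-fold higher in tumour cells and 2 at least 2-fold lower, and the list median was 0.16. Srgn, the proteoglycan that packs granule contents, was at 2027 CPM in tumour cells and 595 CPM in spleen cells (ratio 1.76). Serpinb9, which protects the killer cell from its own granzyme B, was at 571 and 290 CPM (0.96), close under 2-fold. Perforin itself, Prf1, was not higher, with 263 CPM in tumour cells and 314 CPM in spleen cells (-0.25, -0.35 to -0.15), 0.055 with TMM factors and -0.54 without the RNA-rich cells. The granule membrane protein Nkg7 had 2061 CPM in tumour cells and 3898 CPM in spleen cells (-0.92). Ctsc, the protease that activates granzymes, was at 53.6 CPM in tumour cells and 132 CPM in spleen cells (-1.22), and the lysosomal protease Ctsd was at 323 and 737 CPM (-1.18). The death ligand Fasl was at 120 CPM in tumour cells and 106 CPM in spleen cells (0.18), and Tnfsf10, which encodes TRAIL, was at 28.1 and 7.29 CPM (1.43).

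Genes of mature, circulating NK cells were lower in tumour cells. Of 18 listed genes, 17 were measured, 15 were at least 2-fold lower, 1 was at least 2-fold higher, and the median was -1.82. Leaving out the RNA-rich cells gave -1.80. Cma1, a mast cell protease gene that mature mouse NK cells also express, had 12.7 CPM in tumour cells and 312 CPM in spleen cells, the lowest ratio of the named genes at -4.16 (-4.41 to -3.91). S1pr5, the sphingosine-1-phosphate receptor by which NK cells leave lymphoid organs, had 5.14 CPM in tumour cells and 134 CPM in spleen cells (-3.78, -4.05 to -3.48). Thinned, S1pr5 was seen in 1.54% of tumour cells and 19.9% of spleen cells. The tumour share was below the 5.26% of myeloid-like cells (6 of 114). Whether those cells express the gene themselves was not tested, so its background level is not known. Zeb2, the repressor that drives terminal maturation, was at 58.6 CPM in tumour cells and 376 CPM in spleen cells (-2.58). Tbx21, which encodes T-bet, was at 51.2 and 129 CPM (-1.26). Itgam (CD11b), with 19.2 CPM in tumour cells and 158 CPM in spleen cells (-2.75), and its partner Itgb2, with 66.5 and 442 CPM (-2.64), form an adhesion receptor of mature cells. Klrg1, whose receptor inhibits terminally mature cells, had 21.8 CPM in tumour cells and 122 CPM in spleen cells (-2.24), and -3.14 without the RNA-rich cells. Irf8, a transcription factor of NK maturation and antiviral responses, was the exception at 988 CPM in tumour cells and 355 CPM in spleen cells (1.46, 1.39 to 1.54).

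The list for immature NK cells was split. Of 13 measured genes, 4 were at least 2-fold higher and 5 at least 2-fold lower, with a median of -0.28 that was 0.33 without the RNA-rich cells, 0.54 with TMM factors and 0.45 with totals free of ribosomal protein and mitochondrial genes. Cd27, the surface marker of early NK cells, was lower (40.8 CPM in tumour cells, 110 CPM in spleen cells, -1.33), as was Cd7 (40.3 and 424 CPM, -3.24). Ctla2a, a cathepsin inhibitor gene, was higher at 2948 CPM in tumour cells and 958 CPM in spleen cells (1.62), and Thy1 was at 243 and 97.5 CPM (1.28), or 0.84 without the RNA-rich cells.

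**Figure D2:**
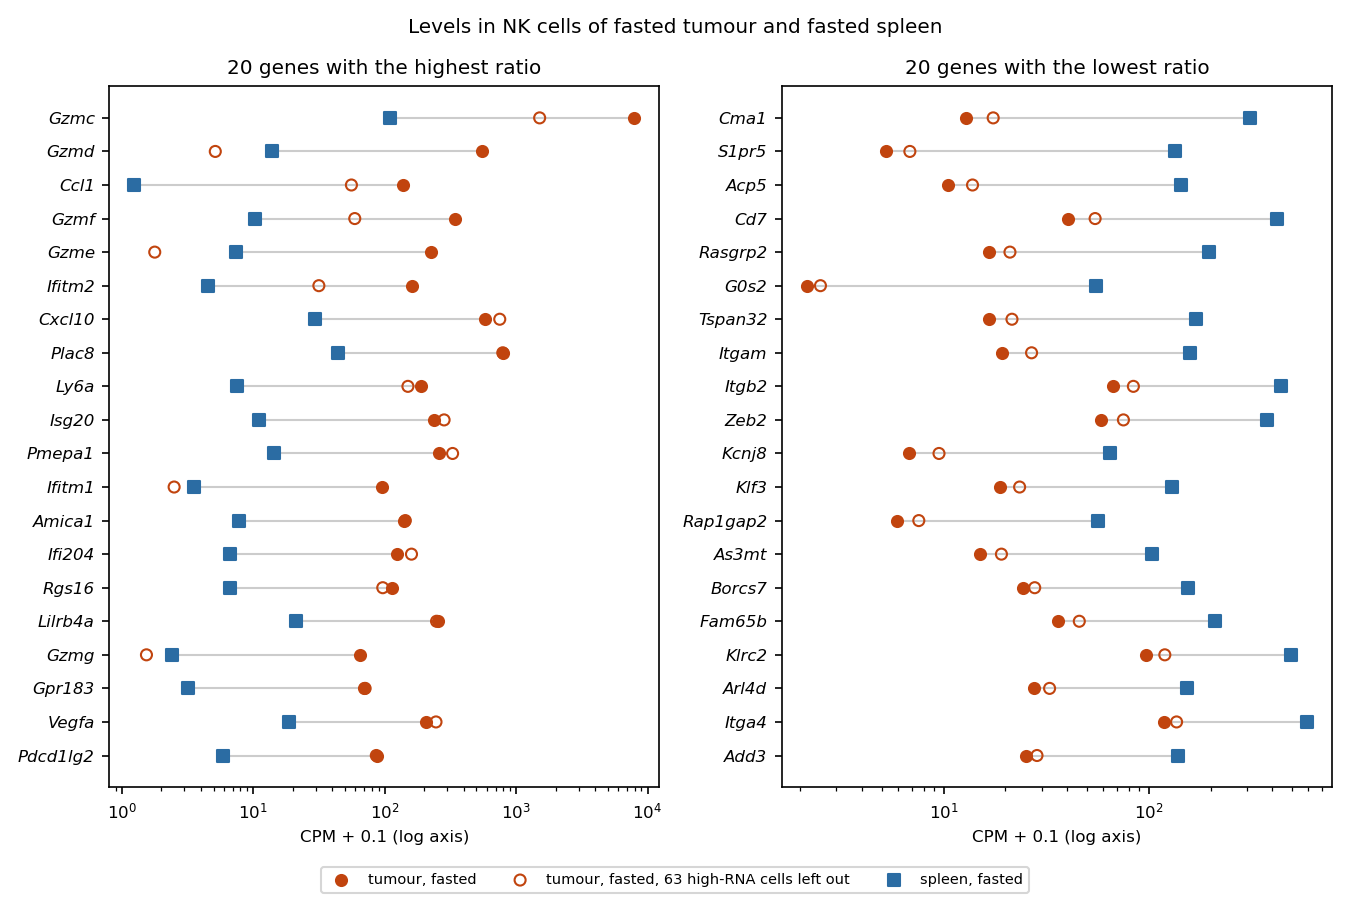
Level in CPM + 0.1 (log axis) of the 20 genes with the highest (left) and the 20 with the lowest (right) ratio of fasted tumour over fasted spleen. Filled circles are tumour cells, open circles tumour cells without the 63 RNA-rich cells, and squares spleen cells; the open circles of Gzmd, Gzme, Gzmg and Ifitm1 lie below their squares.

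Homing and egress genes were lower as well. Of 16 measured genes for chemokine receptors and homing, 9 were at least 2-fold lower and 2 at least 2-fold higher, with a median of -1.40, or -0.55 when genes under 20 CPM were kept. S1pr1 (10.5 CPM in tumour cells, 50.7 CPM in spleen cells, -1.85), S1pr4 (30.5 and 111 CPM, -1.70) and the integrin chain Itga4 (118 and 591 CPM, -2.27) were all lower. Rasgrp2, an activator of Rap1 in integrin signalling, was at 16.4 CPM in tumour cells and 196 CPM in spleen cells (-3.22). Cx3cr1, the fractalkine receptor of patrolling NK cells, had 0.857 and 26.3 CPM (-2.42). The genes on the other side were Cxcr4, the receptor that holds cells in bone marrow and other tissues along CXCL12, and Gpr183, a receptor for oxysterols. Cxcr4 had 340 CPM in tumour cells and 73.3 CPM in spleen cells (2.14, 1.99 to 2.29), and Gpr183 had 70.1 and 3.07 CPM (3.22).

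Measured genes of the list for tissue residency and the TGF-β response were mostly higher in tumour cells. Of 14 measured genes, 10 were at least 2-fold higher and none at least 2-fold lower, with a median of 1.66. The residency genes Itga1, Itgae, Cxcr6, Zfp683, Cd200r1 and Ccr8, and the receptor gene Tgfbr1, were under 20 CPM in both populations and were not measured. Pmepa1, a TGF-β target that feeds back on SMAD signalling, had 259 CPM in tumour cells and 14.4 CPM in spleen cells, a ratio of 3.77 (3.51 to 4.03). Thinned, it was seen in 38.1% of tumour cells (34.5% to 41.8%), 1.42% of spleen cells and 9.65% of myeloid-like cells. Other SMAD pathway genes were higher too. The inhibitor Smad7 had 320 CPM in tumour cells and 105 CPM in spleen cells (1.56), and the repressor Skil had 158 and 43.7 CPM (1.74). Rgs1 and Rgs16 restrain chemokine receptor signalling. Rgs1 had 1509 CPM in tumour cells and 255 CPM in spleen cells (2.54), and Rgs16 had 113 and 6.52 CPM (3.36). Cd69, which blocks exit by way of S1PR1, was at 351 CPM in tumour cells and 102 CPM in spleen cells (1.74). Tgfbr2, the receptor subunit that binds TGF-β, was at 50.7 and 47.6 CPM with an interval that held 0 (0.08, -0.14 to 0.31). Eomes, the transcription factor that tells NK cells from type 1 innate lymphoid cells, was at 125 CPM in tumour cells and 224 CPM in spleen cells (-0.81). The 10 markers of type 1 innate lymphoid cells summed to 144 CPM in tumour cells and 162 CPM in spleen cells, with Zfp683 at 0 in both. Members went apart, and Ikzf3 made 33.6 CPM of the tumour sum and 106 CPM of the spleen sum. Without the RNA-rich cells, Tnfsf10 was at 22.4 CPM and Itga1 at 11.3 CPM in tumour cells, against 7.29 and 1.5 CPM in spleen cells.

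Activating and inhibitory receptors were mostly lower. Of 23 measured receptor genes, 8 were at least 2-fold lower and 3 at least 2-fold higher, and the median was -0.88. Ncr1, which encodes the activating receptor NKp46, had 286 CPM in tumour cells and 1048 CPM in spleen cells (-1.85, -1.93 to -1.78). The adaptor Tyrobp (DAP12) had 1722 CPM in tumour cells and 3730 CPM in spleen cells (-1.11), while the Fc receptor chain Fcer1g had 2380 and 2790 CPM (-0.23, but 0.08 with TMM factors). Klrk1, which encodes NKG2D, had 714 CPM in tumour cells and 1298 CPM in spleen cells (-0.86). Klrc2, at 96.3 and 496 CPM (-2.30), and Klrc1, at 170 and 210 CPM (-0.29, or 0.01 with TMM factors), encode NKG2C and NKG2A. Of the windows at the end of the Klrc1 transcript, 32.6% were shared with Klrc2, so their values are uncertain. The genes for Ly49 receptors, which read self class I molecules in mice, had 4 of 7 measured members at least 2-fold lower and none at least 2-fold higher, with a median of -1.12. Klra8 (Ly49H) had 269 CPM in tumour cells and 814 CPM in spleen cells (-1.58), and Klra4 (Ly49D) had 479 and 1286 CPM (-1.41).

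The 3 receptor genes at least 2-fold higher were all inhibitory. Lilrb4a had 253 CPM in tumour cells and 21.1 CPM in spleen cells (3.31, 3.07 to 3.54). Ctla4 had 51.4 CPM in tumour cells and 1.73 CPM in spleen cells (3.07), and Lag3 had 21.8 and 4.60 CPM (1.48). Thinned, Lilrb4a was seen in 28.6% of tumour cells, 2.14% of spleen cells, 29.8% of myeloid-like cells, which can express it themselves, and 4.85% of T cell-like cells. Ctla4 was seen in 4.62% of thinned tumour cells and in none of the myeloid-like or T cell-like cells. The Lag3 share of tumour cells was 1.68% (0.87% to 2.92%), and the 1.21% of T cell-like cells lay inside that interval. Whether these shares differ was not tested. Pdcd1lg2, a ligand of PD-1, was at 87.7 CPM in tumour cells and 5.76 CPM in spleen cells (3.11). Tnfrsf9, which encodes the costimulatory receptor 4-1BB and marks recent activation, had 327 CPM in tumour cells and 39.3 CPM in spleen cells (2.91, 2.72 to 3.10).

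Most secreted factors were higher in tumour cells. Of 12 measured cytokine and chemokine genes, 7 were at least 2-fold higher and 3 at least 2-fold lower, with a median of 1.04. Xcl1, which draws cross-presenting dendritic cells, had 1475 CPM in tumour cells and 252 CPM in spleen cells (2.53, 2.44 to 2.61). Cxcl10, an interferon-induced chemokine that binds CXCR3, had 582 CPM in tumour cells and 29.4 CPM in spleen cells (4.09). Thinned, Cxcl10 was seen in 16.8% of tumour cells, 2.85% of spleen cells, 15.8% of myeloid-like cells, which can express the gene themselves, and 4.24% of T cell-like cells. Tgfb1 had 476 CPM in tumour cells and 118 CPM in spleen cells (1.96). Ccl5, one of the most abundant messages of spleen NK cells, had 7145 CPM in tumour cells and 25326 CPM in spleen cells (-1.82, -1.84 to -1.81), and -1.35 without the RNA-rich cells. Ccl3 and Ccl4, related inflammatory chemokines, went apart: Ccl4 was at 1343 CPM in tumour cells and 634 CPM in spleen cells (1.08), and Ccl3 was at 263 and 590 CPM (-1.15). Without the RNA-rich cells these ratios were 1.56 and -0.69. Ifng, the main NK cytokine, was at 301 CPM in tumour cells and 206 CPM in spleen cells (0.53), under 2-fold. Ccl1, at 138 and 1.15 CPM (4.54), took 39.2% of its tumour UMIs from 1 cell and had a ratio of 3.90 without the highest cell and 3.31 without the RNA-rich cells. Spp1, which encodes osteopontin, had a ratio of 2.34, and 0.88 without the RNA-rich cells.

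Of 17 measured cytokine receptor genes, 2 (11.8%) were at least 2-fold higher and 2 (11.8%) at least 2-fold lower, with a median of -0.30. Over all genes tested these shares were 5.28% and 7.19%. Il2rb, the receptor chain for interleukin 2 and interleukin 15, was at 382 CPM in tumour cells and 404 CPM in spleen cells (-0.08, -0.17 to 0.01), with a positive sign, 0.23, under TMM factors. The receptor for interleukin 18 was lower in both its chains, with Il18r1 at 106 CPM in tumour cells and 270 CPM in spleen cells (-1.30, or -0.995 without the RNA-rich cells) and Il18rap at 80.2 and 241 CPM (-1.53). Il2ra, the chain that raises affinity for interleukin 2, was at 21.9 CPM in tumour cells and 1.15 CPM in spleen cells (2.13).

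Transcription factor genes split, with 9 of 33 measured genes at least 2-fold higher, 6 at least 2-fold lower and a median of -0.33. The higher ones besides Irf8 held Nr4a1, induced by receptor signalling, with 172 CPM in tumour cells and 28.4 CPM in spleen cells (2.41). Runx3, which TGF-β signalling engages in resident lymphocytes, had 496 CPM in tumour cells and 234 CPM in spleen cells (1.06). Bhlhe40 had 471 and 203 CPM (1.19). Hif1a, the oxygen-regulated subunit of HIF-1, was at 76.8 CPM in tumour cells and 24.9 CPM in spleen cells (1.45). Myc was at 70.9 and 23.6 CPM (1.41). The lower ones held the Ikaros family genes Ikzf1, with 78.3 CPM in tumour cells and 250 CPM in spleen cells (-1.61), and Ikzf3, with 33.6 and 106 CPM (-1.53). Klf2, the factor that keeps S1pr1 on, was at 612 CPM in tumour cells and 1160 CPM in spleen cells (-0.92), and at -0.49 without the RNA-rich cells.

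Interferon-induced genes were higher in tumour cells almost throughout. Of 31 measured genes, 21 were at least 2-fold higher, none was at least 2-fold lower and 30 had a positive ratio, with a median of 1.66, or 1.94 without the RNA-rich cells. Isg15, a ubiquitin-like modifier, had 342 CPM in tumour cells and 41.8 CPM in spleen cells (2.89, 2.71 to 3.08). Thinned, it was seen in 26.2% of tumour cells, 5.06% of spleen cells, 33.3% of myeloid-like cells, which can express the gene themselves, and 7.27% of T cell-like cells. Isg20, an exonuclease that degrades viral RNA, had 237 CPM in tumour cells and 10.9 CPM in spleen cells (3.93, 3.65 to 4.20) and was seen in 27.7% of thinned tumour cells, 1.11% of spleen cells and 13.2% of myeloid-like cells. Ifit3, an RNA-binding antiviral protein, was at 115 and 9.59 CPM (3.04). Of its windows, 6.57% were shared with Ifit3b. Ly6a was at 190 CPM in tumour cells and 7.48 CPM in spleen cells (3.96), and the restriction factor Bst2 at 416 and 61.6 CPM (2.66). Irf7, which amplifies type I interferon, had 178 CPM in tumour cells and 52.6 CPM in spleen cells (1.66). Genes induced mainly by interferon gamma differed less: Gbp2 was at 28.8 CPM in tumour cells and 20.5 CPM in spleen cells (0.40), Gbp4 at 65.1 and 59.7 CPM (0.12) and Ifi47 at 139 and 134 CPM (0.05).

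Ifitm1 and Ifitm2 lay mostly in the RNA-rich cells. Ifitm2, at 163 CPM in tumour cells and 4.41 CPM in spleen cells (4.16), had a ratio of 1.96 without the RNA-rich cells, and Ifitm1, at 96.0 and 3.45 CPM (3.58), turned to -0.19. Ifitm3 had a ratio of 3.06, and 2.67 without those cells. Ifitm1 drew 43.6% of its tumour UMIs from 1 cell.

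The promoters of Isg15 and Ifit3 are shown because both genes were high in tumour cells and hold the interferon-stimulated response element (ISRE), a site through which interferons act on genes. Capitals mark matches to GAAA, any 2 bases and GAAA again on either strand, and overlapping matches run together. Isg15 lies at chr4:156200769-156201068 on the minus strand and Ifit3 at chr19:34583279-34583578 on the plus strand of GRCm38.p6.
Isg15: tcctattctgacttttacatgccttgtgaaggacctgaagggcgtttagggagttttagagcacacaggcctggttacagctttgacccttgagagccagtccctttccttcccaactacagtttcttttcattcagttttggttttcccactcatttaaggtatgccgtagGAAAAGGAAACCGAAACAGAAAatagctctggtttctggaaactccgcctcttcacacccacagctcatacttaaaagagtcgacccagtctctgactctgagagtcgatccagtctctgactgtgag
Ifit3: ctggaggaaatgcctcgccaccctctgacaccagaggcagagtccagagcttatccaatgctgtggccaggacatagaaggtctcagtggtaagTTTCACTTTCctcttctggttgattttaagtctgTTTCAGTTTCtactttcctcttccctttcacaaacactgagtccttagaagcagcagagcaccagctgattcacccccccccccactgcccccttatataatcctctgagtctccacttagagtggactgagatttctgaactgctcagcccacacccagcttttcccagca
Of the 32 interferon list genes, 23 had a promoter in the RefSeq table, and 14 of those (60.9%) held the motif, against 3.49% of all 27025 promoters. The motif says nothing of binding in these cells.

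Antigen presentation genes leaned the same way with small differences. Of 19 measured genes, 14 had a positive ratio but 1 alone (5.26%) was at least 2-fold higher, and the median was 0.34. Over all genes tested, 5.28% were higher by that much. B2m, the light chain of class I molecules, was at 3337 CPM in tumour cells and 2559 CPM in spleen cells (0.38), while the heavy chain genes H2-K1 (2876 and 3110 CPM, -0.11) and H2-D1 (2903 and 3130 CPM, -0.11) were near 0, and positive (0.20 each) with TMM factors. Class I genes are near copies of one another, so counts could be split between them. The gene past 2-fold was Calr, the chaperone calreticulin, at 438 CPM in tumour cells and 212 CPM in spleen cells (1.03), but 0.64 without the RNA-rich cells, 0.48 with the same weight per cell and 0.52 thinned, so its 2-fold difference was lost in each.

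**Figure D3:**
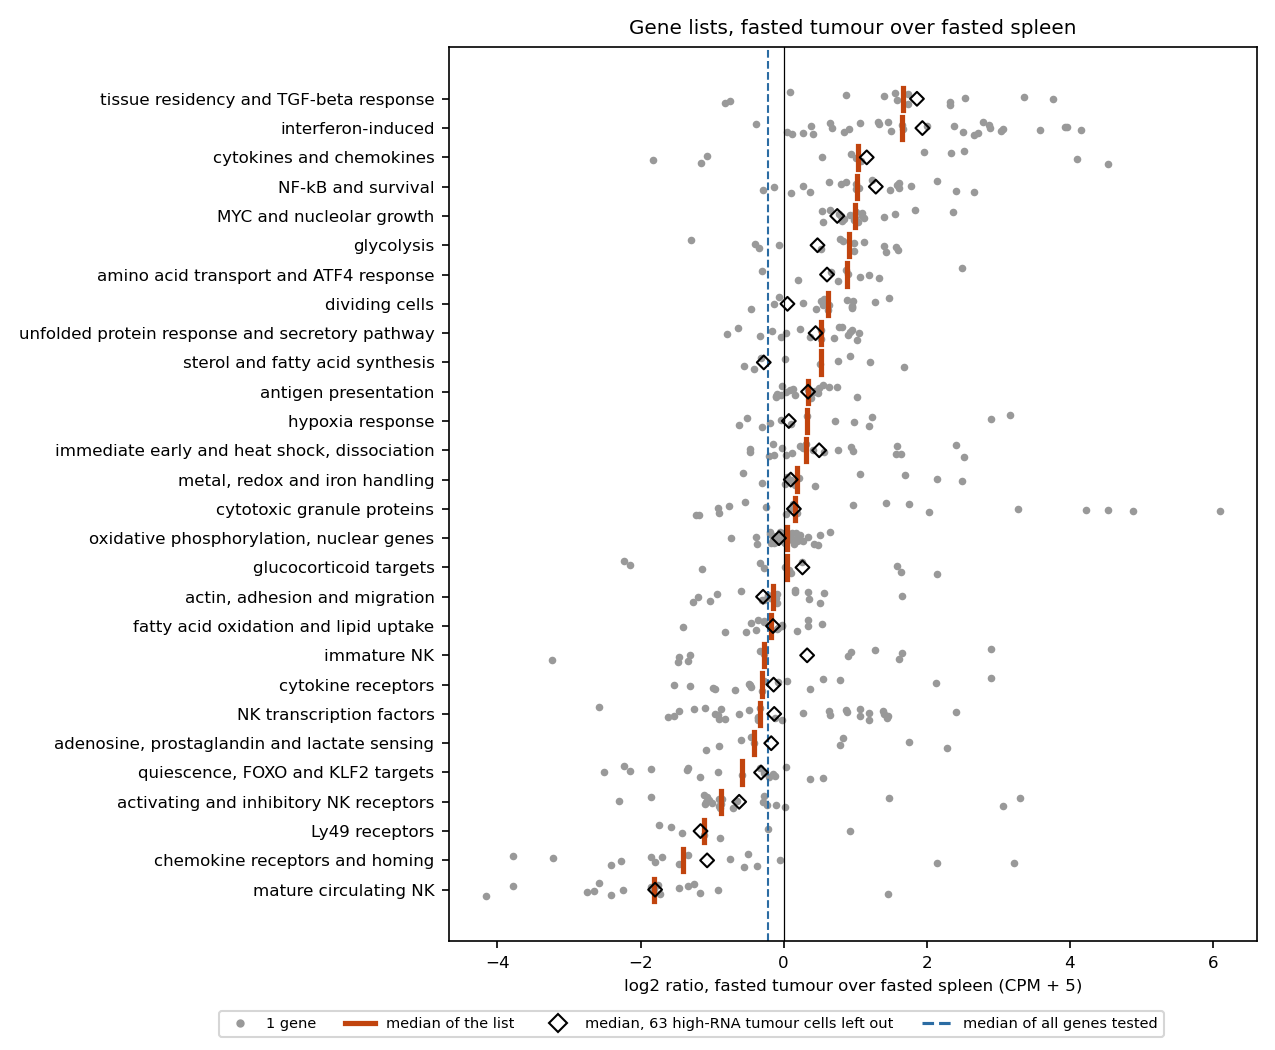
Log2 ratio of fasted tumour over fasted spleen (horizontal axis) for the measured genes of 28 lists (rows, ordered by median). Dots are genes, bars list medians, diamonds list medians without the 63 RNA-rich tumour cells, and the dashed line is the median of all 5604 genes; mature NK genes lie lowest at -1.82, and residency and interferon genes highest at 1.66.

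Glycolysis genes were higher in tumour cells, and part of that lay in the RNA-rich cells. Of 14 measured glycolysis genes, 5 were at least 2-fold higher and 1 at least 2-fold lower, with a median of 0.91. The median was 0.47 without the RNA-rich cells and 0.32 when each cell had the same weight. Gapdh had 1074 CPM in tumour cells and 351 CPM in spleen cells (1.60, 1.52 to 1.67), and 1.03 without the RNA-rich cells, which held 52.1% of its tumour UMIs. Ldha, which makes lactate from pyruvate, had 556 CPM in tumour cells and 208 CPM in spleen cells (1.40), and 0.80 without those cells. The glucose transporters went apart, with Slc2a1 at 36.3 CPM in tumour cells and 18.2 CPM in spleen cells (0.83) and Slc2a3 at 12.0 and 36.6 CPM (-1.29).

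Among 13 measured hypoxia genes, 4 were at least 2-fold higher and none at least 2-fold lower, with a median of 0.33, or 0.07 without the RNA-rich cells. Of the 4, Vegfa, Hilpda and Bhlhe40 stayed at least 2-fold higher without those cells, and Ndrg1, at 1.23, was at 0.89. Vegfa, the growth factor for blood vessels, had 207 CPM in tumour cells and 18.6 CPM in spleen cells (3.17, 2.92 to 3.41), and 3.41 without the RNA-rich cells. It was seen in 25.5% of thinned tumour cells, 1.74% of spleen cells and 9.65% of myeloid-like cells. Hilpda, a lipid droplet protein induced by low oxygen, had 271 CPM in tumour cells and 32.0 CPM in spleen cells (2.90), and 2.86 without them. The stress gene Ddit4 was at 81.1 CPM in tumour cells and 74.8 CPM in spleen cells (0.11).

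The Ldha promoter is printed because Ldha is a textbook HIF-1 target and its ratio passed 2-fold. It lies at chr7:46845554-46845853 on the plus strand of GRCm38.p6, and capitals mark ACGTG on either strand, with overlapping matches run together.
Ldha: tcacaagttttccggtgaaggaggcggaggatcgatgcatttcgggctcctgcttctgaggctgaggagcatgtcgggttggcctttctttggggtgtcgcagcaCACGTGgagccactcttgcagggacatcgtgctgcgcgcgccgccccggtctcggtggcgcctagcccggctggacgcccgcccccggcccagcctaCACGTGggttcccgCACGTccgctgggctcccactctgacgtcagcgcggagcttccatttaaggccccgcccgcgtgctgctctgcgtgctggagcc
Of 20 glycolysis promoters, 10 (50%) held ACGTG, as did 10 of 17 hypoxia promoters (58.8%), against 19.7% of all promoters. Of the other motifs searched, the NF-κB motif (GGGA, any 4 bases, CC) was in 6 of 17 NF-κB list promoters (35.3%) and 20.5% of all, and the AP-1 motif TGANTCA in 1 of 22 granule promoters (4.55%) and 7.93% of all. The T-box motif (AGGT followed by GTGA) was in 0 of 13 mature NK promoters, 2 of 22 granule promoters and 1.27% of all, and the STAT motif (TTC, any 3 bases, GAA) in 4 of 22 granule promoters (18.2%) and 8.47% of all.

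Growth genes were higher in tumour cells. All 20 measured genes of the MYC and nucleolar list had a positive ratio, and 10 were at least 2-fold higher, with a median of 1.00, 0.75 without the RNA-rich cells and 0.55 with the same weight per cell. Odc1, the entry enzyme of polyamine synthesis, had 196 CPM in tumour cells and 33.8 CPM in spleen cells (2.37). The nucleolar protein gene Npm1 had 1441 CPM in tumour cells and 712 CPM in spleen cells (1.01), and 0.78 without those cells. Amino acid transport and ATF4 targets had 4 of 10 measured genes at least 2-fold higher and none lower by that much, with a median of 0.88. Slc7a5, the large neutral amino acid transporter, was at 31.7 CPM in tumour cells and 1.53 CPM in spleen cells (2.49), and 1.86 without those cells. Of 18 measured genes of the unfolded protein response, 2 were at least 2-fold higher and none lower by that much (median 0.52), led by the chaperone Hspa5 at 652 CPM in tumour cells and 313 CPM in spleen cells (1.05, or 0.94 without the RNA-rich cells).

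The dividing cell list and the sterol list rested on the RNA-rich cells. Of 17 measured genes of dividing cells, 2 were at least 2-fold higher and none lower by that much, with a median of 0.61 that became 0.05 without the RNA-rich cells and -0.10 after thinning. Stmn1 had 167 CPM in tumour cells and 114 CPM in spleen cells (0.53), and -0.93 without them. Tyms was at 45.2 and 13.0 CPM (1.48), and 0.23 without them. Of 9 measured sterol and fatty acid synthesis genes, 2 were at least 2-fold higher and none lower by that much, with a median of 0.52 that turned to -0.28 without the RNA-rich cells. Fatty acid oxidation genes had no member at least 2-fold higher and 1 (6.25%) at least 2-fold lower of 16 measured (median -0.18, or 0.19 with TMM factors). Over all genes tested, 7.19% were lower by that much. The lower gene of the list was Cpt1a, which admits long-chain fatty acids to mitochondria, at 12.9 CPM in tumour cells and 42.4 CPM in spleen cells (-1.41, -1.70 to -1.11). None of the 38 measured nuclear genes of oxidative phosphorylation was 2-fold apart in either direction (median 0.05).

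Genes of quiescence and of FOXO and KLF2 targets had 7 of 17 measured members at least 2-fold lower and none at least 2-fold higher, with a median of -0.58, or -0.32 without the RNA-rich cells. Txnip, which slows glucose uptake, had 112 CPM in tumour cells and 544 CPM in spleen cells (-2.23, -2.35 to -2.12). Pik3ip1, an inhibitor of PI3 kinase, had 13.9 and 78.5 CPM (-2.14). Klf3, a target and counterpart of KLF2, had 18.7 CPM in tumour cells and 130 CPM in spleen cells (-2.51). The glucocorticoid target list split evenly, with 3 of 12 measured genes at least 2-fold higher and 3 at least 2-fold lower (median 0.04). Its classic targets were Tsc22d3, at 309 CPM in tumour cells and 258 CPM in spleen cells (0.25), and Fkbp5, at 31.5 and 75.8 CPM (-1.15).

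The next 2 lists can be raised by warm digestion as well as by signals in the tissue, and here these cannot be told apart. Of 21 measured immediate early and heat shock genes, 5 were at least 2-fold higher and none lower by that much, with a median of 0.31. Fos (232 CPM in tumour cells, 213 CPM in spleen cells, 0.12) and Jun (667 and 679 CPM, -0.02, or 0.28 with TMM factors) had ratios near 0. Atf3 (67.5 and 7.67 CPM, 2.52), Dusp1 (268 and 82.5 CPM, 1.64) and Egr1 (107 and 32.6 CPM, 1.58) were higher in tumour cells. Of 20 measured NF-κB and survival genes, 12 were at least 2-fold higher and none lower by that much, with a median of 1.03. Tnfaip3, the A20 feedback inhibitor, had 333 CPM in tumour cells and 71.2 CPM in spleen cells (2.15, 2.00 to 2.30), and Nfkbia, which encodes IκBα, had 1095 and 362 CPM (1.59). Bcl2l11, which encodes the death protein BIM, was at 336 CPM in tumour cells and 116 CPM in spleen cells (1.49). Bcl2a1b had 143 CPM in tumour cells and 18.2 CPM in spleen cells (2.67, or 2.03 without the RNA-rich cells), but 39.4% of its end windows were shared with its paralogs.

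Metal, redox and iron genes had 4 of 12 measured members at least 2-fold higher and none lower by that much, against 5.28% of all genes, with a median of 0.19, among them the peroxidase Prdx6 at 570 CPM in tumour cells and 125 CPM in spleen cells (2.14). Genes for adenosine, prostaglandin and lactate sensing had 2 of 9 at least 2-fold higher and 1 at least 2-fold lower (median -0.41). Nt5e (CD73), which makes adenosine, was at 39.1 CPM in tumour cells and 8.06 CPM in spleen cells (1.75), and the adenosine receptor Adora2a was at 27.8 and 64.5 CPM (-1.08, or -0.83 without the RNA-rich cells). Actin and migration genes had 1 of 20 (5%) at least 2-fold higher and 3 (15%) at least 2-fold lower (median -0.15, or 0.16 with TMM factors). Over all genes tested these shares were 5.28% and 7.19%.

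Several of the highest genes stood outside the lists. Plac8, expressed by activated and resident lymphocytes, had 789 CPM in tumour cells and 44.1 CPM in spleen cells (4.01, 3.84 to 4.19), and the same ratio, 4.02, without the RNA-rich cells. Thinned, it was seen in 36.7% of tumour cells and 5.30% of spleen cells, in 42.1% of myeloid-like cells and in 5.45% of T cell-like cells. Amica1, an adhesion receptor now called JAML, was at 140 CPM in tumour cells and 7.67 CPM in spleen cells (3.51), and the nucleic acid sensor gene Ifi204 at 124 and 6.52 CPM (3.49). The lowest named genes outside the lists were Acp5, a phosphatase gene, at 10.5 CPM in tumour cells and 143 CPM in spleen cells (-3.26), the tetraspanin gene Tspan32 at 16.4 and 170 CPM (-3.03) and the lipase inhibitor gene G0s2 at 2.06 and 55.3 CPM (-3.09). The remaining 7 of the 20 lowest were Kcnj8, Rap1gap2, As3mt, Borcs7, Fam65b, Arl4d and Add3, with ratios of -2.57 to -2.25.

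The levels of other cell types' markers in the cells compared were as follows, and their part in the differences was not tested. Monocyte and macrophage markers summed to 203 CPM in tumour cells and 685 CPM in spleen cells, in both mainly through Ly6c2, with Adgre1 at 0 in each. T cell markers summed to 362 CPM in tumour cells and 355 CPM in spleen cells, with Cd4 at 0 in both, and neutrophil markers to 25.7 CPM in tumour cells and 45.1 CPM in spleen cells. Markers of carcinoma and stroma summed to 109 CPM in tumour cells, of which Pecam1 made 70.4 CPM, and to 32.8 CPM in spleen cells. Gzma, a gene of NK cells, was seen in 68.4% of thinned myeloid-like cells. The cluster that held 679 of the 768 tumour cells also held 42 spleen cells.

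**Figure D4:**
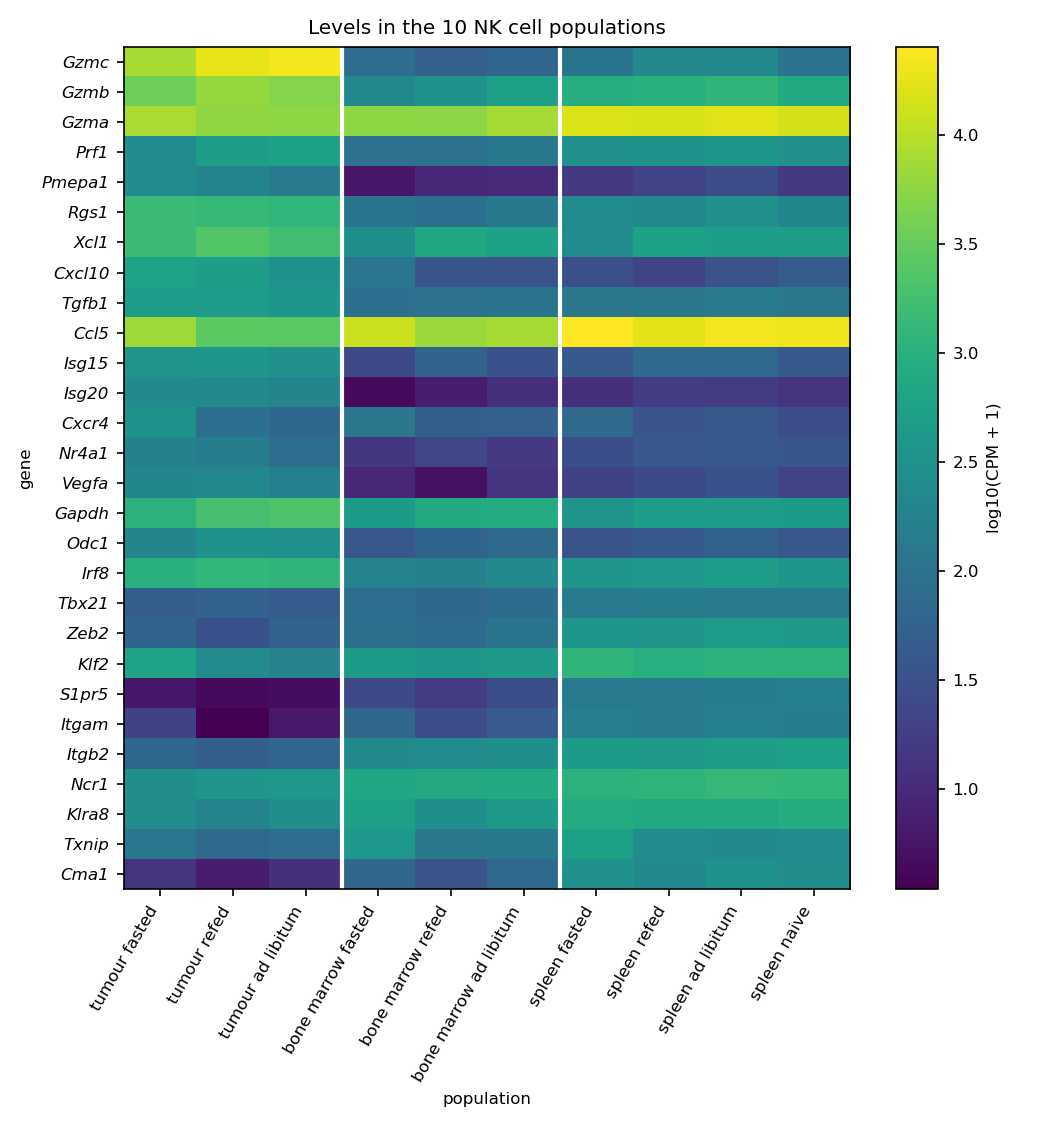
Level as log10(CPM + 1) (colour) of 28 genes (rows) in the 10 NK cell populations (columns), grouped as tumour, bone marrow and spleen. Gzmb was higher in the 3 tumour populations than in any other, at 3581, 6302 and 5009 CPM against at most 1181 CPM, and S1pr5 lower, at no more than 5.14 CPM against at least 15.9 CPM.

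Set among the other populations, fasted tumour cells held the lowest Gzmc level of the 3 tumour populations, with 7952 CPM against 18720 CPM in refed and 22479 CPM in ad libitum tumour cells, while no population outside the tumour passed 229 CPM. The RNA-rich cluster held 8.20% of fasted, 35.2% of refed (32 of 91) and 30.2% of ad libitum (13 of 43) tumour cells, so values without it are also given, a choice made after seeing the data. Without it Gzmc was at 1512 CPM in fasted, 3459 CPM in refed and 3365 CPM in ad libitum tumour cells. Their Cxcr4 level, 340 CPM, was above the 89.7 CPM of refed and 65.9 CPM of ad libitum tumour cells, and without the cluster the levels were 465, 207 and 217 CPM in the order fasted, refed and ad libitum. Their Klf2 level, 612 CPM, likewise stood above 253 and 178 CPM in refed and ad libitum tumour cells, and without the cluster the levels were 823, 519 and 410 CPM in that order of states. Fasted bone marrow cells lay at 221 CPM for Gzmb, 12580 CPM for Ccl5 and 23.4 CPM for S1pr5. For S1pr5, Itgam and Cma1, picked from the 20 genes with the lowest fasted ratio, levels rose from tumour to bone marrow to spleen. Cma1 was at 5.81 to 12.7 CPM in tumour, 32.5 to 71.5 CPM in bone marrow and 245 to 322 CPM in spleen. Cd7, also of those 20, overlapped between bone marrow (304 to 402 CPM) and spleen (311 to 424 CPM). The share of all tested genes with that order was not counted.

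The refed and ad libitum populations share no cells with the fasted ones, so the same genes were followed there, although the refed tumour gave 91 cells and the ad libitum tumour 43. Among refed cells 351 of 5524 genes (6.35%) were at least 2-fold higher in tumour and 512 (9.27%) at least 2-fold lower, and among ad libitum cells 399 of 5687 (7.02%) and 754 (13.3%). Of the 296 genes higher in fasted tumour cells, 296 had a positive ratio among refed cells and 286 among ad libitum cells, and 188 (63.5%) were at least 2-fold higher in both. Over all tested genes, 38.3% had a positive ratio among refed cells and 34.8% among ad libitum cells. Of the 403 lower genes, 403 were negative among refed and 402 among ad libitum cells, and 253 (62.8%) were at least 2-fold lower in both. Some ratios had another size in other states, which also differ in their share of RNA-rich cells. Ahr, the aryl hydrocarbon receptor, had a ratio of 2.32 in the fasted state, 0.04 in the refed state and 0.92 in the ad libitum state, or 2.72, 0.71 and 1.48 without the RNA-rich cells. Gapdh had 1.60, 1.97 and 2.20 in that order, and 1.03, 1.37 and 0.60 without them. Prf1 had -0.25 in the fasted, 0.67 in the refed and 0.60 in the ad libitum state, and -0.54, 0.51 and -0.46 without the RNA-rich cells. Whether the states differ was not tested, as each rests on 1 population per tissue.

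**Figure D5:**
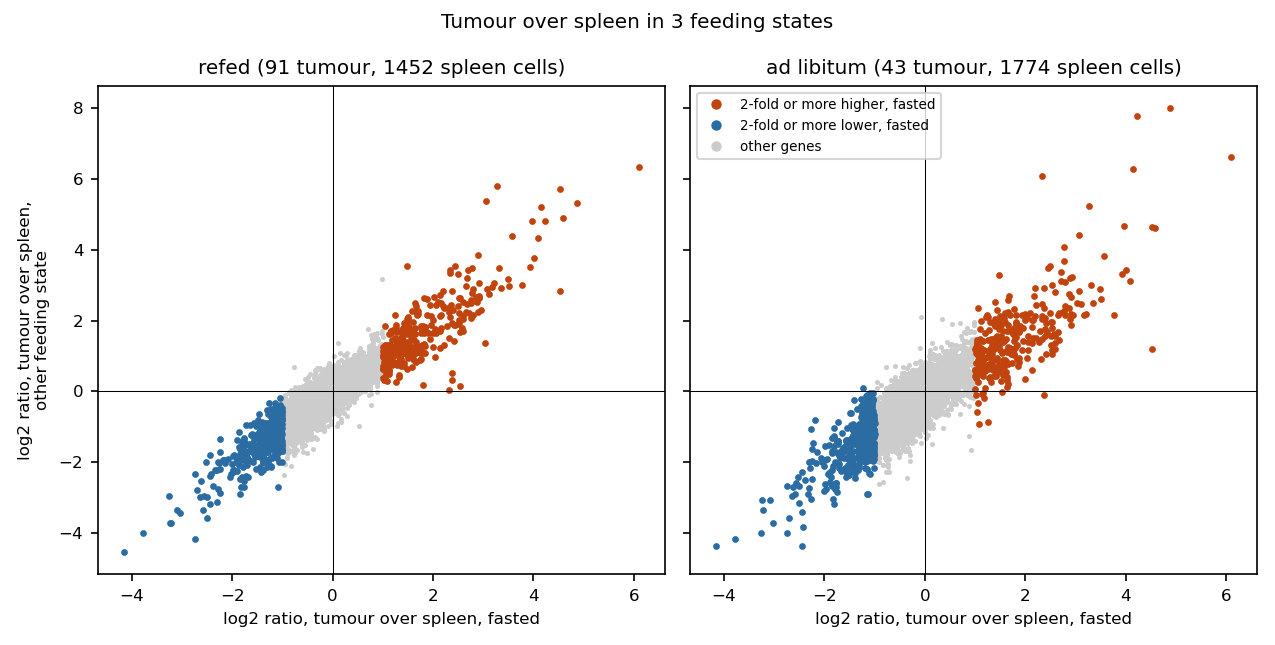
Log2 ratio of tumour over spleen among refed (left) and ad libitum (right) cells on the vertical axis against the same ratio among fasted cells on the horizontal axis, for the 5604 tested genes. Colours mark genes at least 2-fold higher (296) or lower (403) in fasted tumour cells; all 296 higher genes lie above 0 in the refed panel and 286 of them in the ad libitum panel.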

How the data were processed

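RNA was counted in single sorted cells of 10 hashtagged populations run on 1 lane. The authors deposited whole-number UMI counts per cell and gene, made with seqc on mm10 per the submitters' processing notes, and their hashtag classification. Of 13118 cells, 5606 were called doublets by the hashtags and left out. Pairs of cells with the same hashtag are not found that way.

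Counts were normalised per cell and clustered with scanpy 1.11.5 and leidenalg 0.10.2 (resolution 0.8), and clusters named T cell-like or monocyte or macrophage-like from markers were left out. UMIs were then summed per population and scaled to CPM. The log2 ratio used CPM + 5, genes that reached 20 CPM in tumour or spleen, and exact binomial 95% intervals from scipy 1.17.1. These intervals were tried on simulated Poisson counts, which share their assumption of independent UMIs. That trial does not cover UMIs that lie clumped in few cells. TMM factors came from edgeR 4.0.16. Shares of cells were computed after thinning each cell to 1500 UMIs, without shallower cells, and their exact binomial intervals are over numbers of cells.

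Named genes are the 20 highest and 20 lowest ratios at 50 CPM or more, all granzymes, and in each list up to 6 members with the largest ratios plus defining members. Genes compared between feeding states for their size were chosen after their values were seen. The members and lists were chosen with earlier results of these data known. Promoters are from RefSeq (GRCm38.p6). Strand and multi-mapping rules of the counting are not stated. A few list members count in the totals but are not reported here by name.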

Additional observations from a re-analysis of the deposited data

How the results depend on the processing

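No paired analysis was possible because each population is 1 sample. The number of genes at least 2-fold higher, 296, was 516 with TMM factors, 481 with totals free of ribosomal protein and mitochondrial genes, 196 at a minimum of 50 CPM and 97 at 4-fold. The number lower, 403, was 182 with TMM factors, 236 with the same weight per cell, 243 at 50 CPM, 39 at 4-fold and 263 without the RNA-rich cluster, an alternative chosen after seeing the data. The other alternatives stayed within 1.5 times. Of 28 list medians, 23 to 28 kept their sign. Among those that turned were cytokine receptors (0.001) and transcription factors (0.119) with the same weight per cell, and transcription factors (0.0) and dividing cells (-0.101) in thinned cells. The sterol list turned to -0.27 with the same weight per cell, -0.106 thinned, -0.409 at 50 CPM, -0.326 without the 5% of cells with most UMIs and -0.277 without the RNA-rich cluster. The adenosine list turned to 0.784 at 50 CPM and 0.167 with no minimum, and the actin list to 0.155 with TMM factors and 0.004 with totals free of ribosomal protein and mitochondrial genes. Without the RNA-rich cluster Gzmd was at -0.904, Gzme at -0.879, Ifitm1 at -0.191 and Gzmg at -0.18, and Rrm2 was at -0.058 without the 5% of cells with most UMIs. The cause was not tested. Of 184 named genes past 2-fold, 145 to 184 kept that call. Counting error limits low genes, and the spread between mice cannot be seen with 1 sample per population.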

Other observations

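The proteins used in the sort had lower messages in tumour cells. Itga2, which encodes CD49b, had 13.7 CPM in tumour cells and 59.9 CPM in spleen cells (log2 ratio -1.79). Klrb1c, which encodes NK1.1, had 370 CPM in tumour cells and 747 CPM in spleen cells, at the edge of 2-fold lower. Without the RNA-rich cells Klrb1c was at 461 CPM in tumour cells, which is less than 2-fold below spleen cells.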
